A study of Mus musculus with 2 samples.

Results

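Fat cell differentiation is driven by a relay of transcription factors, and the cells it produces secrete hormones and take up fatty acids. Expression of 10 genes from this program was examined in cultured cells from gonadal fat of mice, which the library titles call adipocytes. The genes were picked by name for their roles in fat cells, with earlier results of these data known. Of them, 4 encode transcription factors (Pparg, Cebpa, Cebpb, and Cebpd), 4 encode adipokines, the proteins that fat secretes into the blood (Adipoq, Lep, Retn, and Cfd), and 2 encode fatty acid carriers (Fabp4 and Cd36). All 10 had a row among the 24091 genes of the table. RNA was sequenced from 2 libraries of C57BL/6 mice, 1 from a sham-irradiated group (the sham library) and 1 from a group whose pelvis was irradiated (the irradiated library), for which the labels name 7.5 Gy and 5 days without saying whether the dose was daily or total. In both groups, gonadal fat was taken 2 months after radiation, floating cells were separated after collagenase digestion, and these cells were cultured for 3 days. Both library titles also carry PBS, whose role the labels do not give. The labels give neither the age nor the number of mice behind each library. With 1 library per group, nothing below has a replicate check, no test between the groups was possible, and animal, culture, and library cannot be told apart from radiation.

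In preadipocytes that receive a differentiation signal, C/EBPβ and C/EBPδ are induced early, and they switch on PPARγ and C/EBPα, which maintain each other and activate the genes of the mature cell. PPARγ is a nuclear receptor that binds DNA as a partner of an RXR protein and responds to fatty acid ligands. Adiponectin (Adipoq), leptin (Lep), resistin (Retn), and adipsin (Cfd) are made in quantity by mature mouse adipocytes. FABP4 carries fatty acids inside the cell, and CD36 takes them up at its surface. Several of these genes are not private to fat cells, since macrophages also use Pparg, Cebpb, Fabp4, and Cd36, and capillary endothelium uses Fabp4 and Cd36.

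By their measured levels, the 10 genes fell into the same groups in both libraries. Levels were read in FPKM, fragments per kilobase of gene length and per 1000000 fragments, which allows genes to be compared per length. The 4 transcription factors and both fatty acid carriers reached an FPKM of 1 in each library, and the 4 adipokines were under 1 in each library. Of all 24091 genes, 10907 reached this level in both libraries. The lowest gene above this level was Pparg, at 4.59 in the sham library and 4.69 in the irradiated one, and the highest gene below it was Cfd, with 0.747 and 0.928. The counting intervals of Cfd, from 0.461 to 1.139 and from 0.627 to 1.327, include 1, so its place under this level was not resolved at this depth. In the summed FPKM of the 10 genes, the fatty acid carriers took 72.3% in the sham library and 77.4% in the irradiated one. The transcription factors took 27.4% and 22.2%, and the adipokines took 0.348% and 0.428%.

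**Figure D1:**
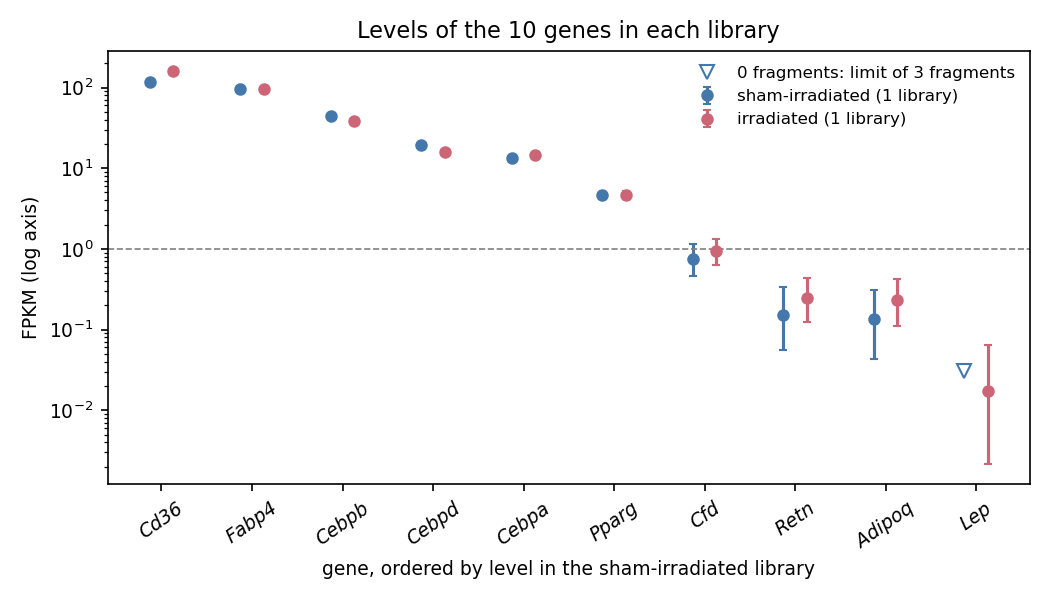
Level of each of the 10 genes (FPKM, log axis) in the sham-irradiated and the irradiated library, with the exact 95% counting interval of each value. The open triangle is the FPKM of 0.0302 that 0 fragments of Lep allow, and the dashed line marks an FPKM of 1, with 6 genes above it and the 4 adipokines below it in both libraries, although the intervals of Cfd include it.

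Starts of genes from both sides of this division are given as the 250 bases before the transcription start, taken from RefSeq on GRCm38.p6 and written in the direction of the gene. A start was found for 8 of the 10 genes, without Cebpd and Fabp4. The motifs searched on both strands were TATAAA, the box that places many transcription starts, CCAAT, the box that C/EBP proteins were named after, TTGCNNAA, a core of C/EBP binding sites, and the direct repeat that PPARγ binds with RXR, which is AGGTCA and AGGTCA with 1 base between them. A loose form of the repeat allowed any base at the fourth position of each AGGTCA and so includes the strict form. Capitals mark the letters of a motif. Cebpa, Cd36, and the most downstream of the 3 Pparg starts stand for genes above an FPKM of 1, and Adipoq and Lep for genes below it. The Cd36 start lies inside the span of its gene, which reaches to 17888959 on the minus strand. Levels are given per gene, so how much each start was used was not measured.
Cebpa (chr7:35119043-35119292, plus strand): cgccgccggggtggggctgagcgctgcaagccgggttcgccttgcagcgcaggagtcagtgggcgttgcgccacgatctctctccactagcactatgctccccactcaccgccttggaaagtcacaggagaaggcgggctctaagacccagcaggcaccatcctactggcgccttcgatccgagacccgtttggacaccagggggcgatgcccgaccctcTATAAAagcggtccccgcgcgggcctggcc
Pparg (chr6:115421816-115422065, plus strand): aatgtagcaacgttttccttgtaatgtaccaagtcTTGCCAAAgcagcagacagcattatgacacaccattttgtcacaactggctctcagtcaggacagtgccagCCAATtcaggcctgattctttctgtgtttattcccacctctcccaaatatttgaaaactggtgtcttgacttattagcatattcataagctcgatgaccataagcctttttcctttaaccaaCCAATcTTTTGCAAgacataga
Cd36 (chr5:17835897-17836146, minus strand): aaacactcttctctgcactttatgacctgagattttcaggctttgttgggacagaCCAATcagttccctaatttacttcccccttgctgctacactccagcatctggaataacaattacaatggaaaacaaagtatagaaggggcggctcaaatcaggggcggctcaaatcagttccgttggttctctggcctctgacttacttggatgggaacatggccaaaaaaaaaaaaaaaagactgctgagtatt
Adipoq (chr16:23146286-23146535, plus strand): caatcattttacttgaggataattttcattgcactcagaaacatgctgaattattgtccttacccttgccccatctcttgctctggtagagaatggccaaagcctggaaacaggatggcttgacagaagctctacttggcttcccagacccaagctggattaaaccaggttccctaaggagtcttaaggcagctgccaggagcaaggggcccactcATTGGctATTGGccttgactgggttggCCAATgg
Lep (chr6:29059971-29060220, plus strand): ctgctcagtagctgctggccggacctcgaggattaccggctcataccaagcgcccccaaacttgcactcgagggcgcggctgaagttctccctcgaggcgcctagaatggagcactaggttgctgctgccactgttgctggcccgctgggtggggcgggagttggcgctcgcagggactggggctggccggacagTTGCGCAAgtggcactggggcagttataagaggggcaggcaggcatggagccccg

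The letters did not divide the genes as their levels did. A CCAAT box was found before 3 of the 8 genes, namely Pparg, Cd36, and Adipoq, and in 33.8% of the 32851 promoters of this length. Adipoq carried it at 3 places, all of them at the end of the window nearest the start. TTGCNNAA was found before 2 genes, at 2 places before the downstream Pparg start and at 1 place before Lep, where the letters read as the motif on both strands, and in 9.56% of all promoters. TATAAA was found before Cebpa and before the middle Pparg start, which is not printed, and in 12.4% of all promoters. The loose PPARγ repeat was in 0.338% of promoters and the strict repeat in 0.0335%, and neither stood in the window of any of the 8 genes. The shares of all promoters count windows, while the members are counted as genes, of which Pparg has 3 windows. These are matches of letters in short windows and not binding sites. GC content was 82.4% at the most upstream Pparg start and 81.6% before Cebpb, compared with 48.8% before Adipoq, 43.2% before Cd36, and 40.8% at the downstream Pparg start. The median of all promoters was 52.4%.

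The depth behind the 10 genes ranged from 0 fragments, for Lep, to 22001, for Cd36. The depth recovered from the deposited values was 30600000 fragments in the sham library and 35000000 in the irradiated library. Of the 11253 genes that reached an FPKM of 1 in either library, 131 (1.16%) differed by 1 or more on the log2(FPKM + 0.1) scale, with 89 (0.791%) higher and 42 (0.373%) lower in the irradiated library. None of the 6 genes above an FPKM of 1 differed by that much, so their count did not stand out from this background. The median difference of the 11253 genes was 0.02, with 53.5% higher and 44% lower. The counting interval, described next, lay above 0 for 23.8% of them and below 0 for 17.5%, and the tallies of the gene lists are to be read against these shares. Intervals of differences are given as exact (Clopper-Pearson) 95% intervals of the ratio of fragments per library total on the log2 scale, and they cover counting error only.

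Among the transcription factors, the early pair was lower in the irradiated library, and the late pair differed by no more than counting error. Cebpb, on chromosome 2 from 167688915 to 167690432, stood at an FPKM of 43.9 in the sham library and 38.8 in the irradiated library, on 2037 and 2057 fragments. Its difference was -0.18, with a counting interval from -0.27 to -0.09. Cebpd, on chromosome 16 from 15887286 to 15889545, stood at an FPKM of 19.3 and 15.9, on 1335 and 1257 fragments, and differed by -0.28, with an interval from -0.39 to -0.17. Both intervals lay below 0. Cebpd was the member that was lowest relative to its sham-irradiated value, and 4.79% of the 11253 genes had a difference as low or lower, compared with 10.7% for Cebpb.

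Cebpa, on chromosome 7 from 35119293 to 35121931, stood at an FPKM of 13.5 in the sham library and 14.4 in the irradiated library. Its 1085 and 1331 fragments gave a difference of 0.10 and an interval from -0.02 to 0.22. Pparg, on chromosome 6 from 115360951 to 115490401, had 369 and 431 fragments and a difference of 0.03, with an interval from -0.17 to 0.23. Both intervals include 0, so a change in either direction of up to about the size of these bounds was not detectable in the pair. The value of Pparg is a sum over all its transcripts. RefSeq places its 3 starts over 60.9 kb, and PPARγ1 and the fat-enriched PPARγ2, which arise from different starts, cannot be separated in it.

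Added together, Cebpb and Cebpd had 3372 fragments in the sham library and 3314 in the irradiated library, a log2 ratio per library total of -0.22 with an interval from -0.29 to -0.15. Cebpa and Pparg together had 1454 and 1762 fragments, a ratio of 0.08 with an interval from -0.02 to 0.18. The intervals of the pairs do not overlap. The division into pairs follows the textbook order of induction and was made after the values were seen. Within the libraries, the FPKM of Cebpb was 3.27 times that of Cebpa in the sham library and 2.69 times in the irradiated library, and that of Cebpd was 1.44 and 1.10 times that of Cebpa. In the irradiated library, the counting intervals of the Cebpd and Cebpa levels overlapped.

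The C/EBP genes are compact and lie beside other transcription units, which bears on their values. Cebpb has a single exon in GENCODE M21, and its exon overlaps an exon of Tmem189 on the opposite strand. Tmem189 had an FPKM of 25.7 and 27.6, a difference of 0.10, which is opposite in sign to that of Cebpb. Cebpd overlaps exons of Spidr on the opposite strand, which had an FPKM of 5.64 and 5.03, a difference of -0.16. Cebpa overlaps the opposite-strand gene Gm45091, which was not used here. The library preparation was stranded, but no source used here says whether counting used the strand, so fragments of these neighbours may be included and their part in the differences was not tested.

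The fatty acid carriers were the highest of the 10 genes in both libraries, and they differed from each other in the comparison. Cd36, on chromosome 5 from 17781690 to 17888959, reached 117.7 FPKM in the sham library and 160.8 in the irradiated library, on 14070 and 22001 fragments. The difference was 0.45, with a counting interval from 0.42 to 0.48, and 5.53% of the 11253 genes had a difference as high or higher. Cd36 was the only member whose counting interval lay above 0. Fabp4, on chromosome 3 from 10204343 to 10208576, stood at an FPKM of 96.9 in both libraries, on 1888 and 2160 fragments, and its interval ran from -0.09 to 0.09. The FPKM of Cd36 was therefore 1.21 times that of Fabp4 in the sham library and 1.66 times in the irradiated one.

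Most markers of other cells that use these genes were also higher in the irradiated library, but the most abundant marker of each cell type was not. Of 15 macrophage markers, 14 reached an FPKM of 1, of which 12 were higher and 2 lower, with 11 counting intervals above 0 and a median difference of 0.36. Their summed FPKM was 678.5 and 733.8, and none was at 0 fragments in either library. The most abundant, Lyz2, the lysozyme of macrophages, had an FPKM of 442.5 and 410.0, and the least abundant, Cd163, had 0.957 and 0.814. Of 11 endothelial markers, 8 were higher and 3 lower, with 5 counting intervals above 0, 6 that include 0, and a median of 0.17. Their summed FPKM was 61.9 and 68.3, and none was at 0. The cadherin Cdh5 was their highest, with 16.5 and 16.2, and the clotting protein gene Vwf their lowest, with 1.32 and 1.40. Their part in the difference of Cd36 was not tested, and in such bulk RNA fewer cells of a type and less RNA per cell cannot be told apart.

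**Figure D2:**
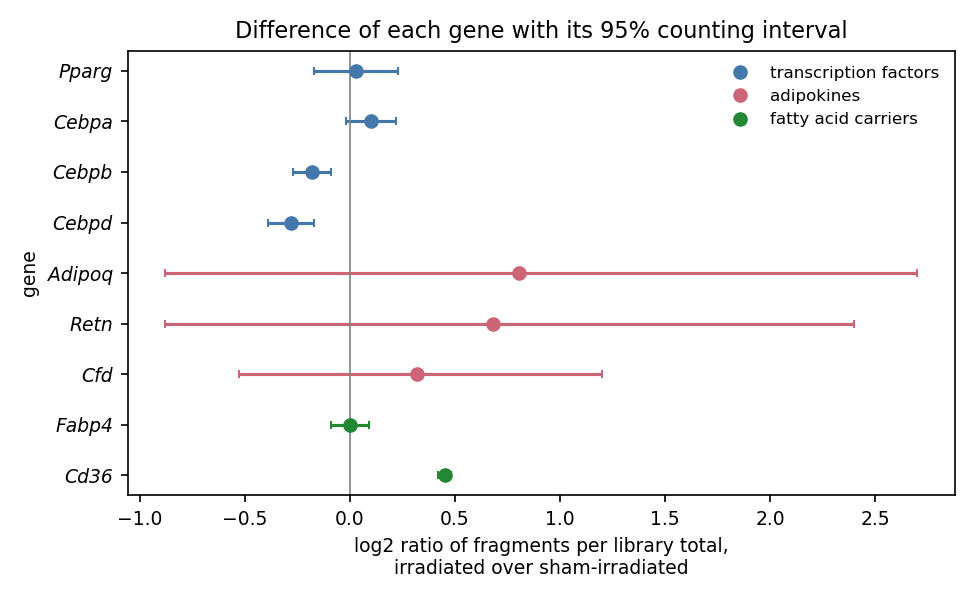
Log2 ratio of fragments per library total (irradiated over sham-irradiated) for 9 of the 10 genes, with its 95% counting interval and without Lep, whose 0 and 2 fragments allow no ratio. The intervals of Cebpb and Cebpd lie below 0 and that of Cd36 above 0, while those of Adipoq, Retn, and Cfd are wide and include 0.

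Of the adipokines, Adipoq, Retn, and Lep had 11 fragments or fewer in each library, and Cfd had more. Adipoq, whose product raises insulin sensitivity, lies on chromosome 16 from 23146536 to 23157968 and measured 0.133 FPKM in the sham library and 0.232 in the irradiated library. These values rest on 5 and 10 fragments, and the counting interval of the ratio ran from -0.88 to 2.70. Retn, on chromosome 8 from 3655770 to 3659818, encodes a hormone that opposes insulin in mice. It had 6 and 11 fragments, an FPKM of 0.154 and 0.246, and an interval from -0.88 to 2.40. Cfd, on chromosome 10 from 79890853 to 79892660, encodes the protease that starts the alternative complement pathway. It had 21 and 30 fragments, an FPKM of 0.747 and 0.928, and an interval from -0.53 to 1.20. For these 3 genes, a difference was not detectable at this depth.

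Lep, the satiety hormone of fat, lies on chromosome 6 from 29060221 to 29073876. It had 0 fragments in the sham library, which allows an FPKM of up to 0.0302, and 2 fragments in the irradiated library, an FPKM of 0.0174. Both counts are under the 3 fragments that a count of 0 allows, so no fold is given. Together, the adipokines had 32 fragments in the sham library and 53 in the irradiated library, a log2 ratio of 0.53 with an interval from -0.13 to 1.21. Their summed FPKM was 1.03 and 1.42.

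From highest to lowest in the sham library, the order of the 10 genes was Cd36, Fabp4, Cebpb, Cebpd, Cebpa, Pparg, Cfd, Retn, Adipoq, and Lep. The order was the same in the irradiated library. The counting intervals of neighbours in the order were apart, except those of Retn and Adipoq in both libraries and those of Cebpd and Cebpa in the irradiated library. Among all 24091 genes of the sham library, Cd36 stood at percentile 98.3, Cebpb at 94.7, Pparg at 68.6, Cfd at 52.5, and Adipoq at 43.5.

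A wider list of mature adipocyte markers also had genes on both sides of an FPKM of 1. Of 22 markers, which include 8 of the 10 genes, 9 reached an FPKM of 1 in both libraries and 13 were under 1 in both. Of all 24091 genes, 10907 reached it in both, so the count of markers did not stand out from this background. Besides members, the higher group held Lpl, Acsl1, Dgat2, Pnpla2, and Tusc5, and the lower group held Plin1, Plin4, Cidec, Lipe, Aqp7, Slc2a4, Pck1, Gpd1, and Adrb3, all but Tusc5 named here after their values were seen. Lpl, the lipase that frees fatty acids from lipoproteins, had an FPKM of 68.02 and 66.6. Plin1, which coats the lipid droplet of mature adipocytes, had 0.254 and 0.478, on 26 and 56 fragments. The 9 markers above the level had a median difference of 0.03, with 5 higher, 3 lower, and 1 equal. All 13 markers under the level were higher in the irradiated library, as were 56.4% of the 6059 genes that had fragments but stayed under an FPKM of 1 in both. The counting interval lay above 0 for 2 of the 13, Plin1 and Plin4. The share of such intervals among the 6059 genes was not computed, so this count has no background. The label of mature adipocytes is thus met by part of its markers in both libraries, among them Pparg, Fabp4, and Cd36, which macrophages also use. Whether the low genes were lost in culture was not measured, since cells from before culture were not analysed here.

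**Figure D3:**
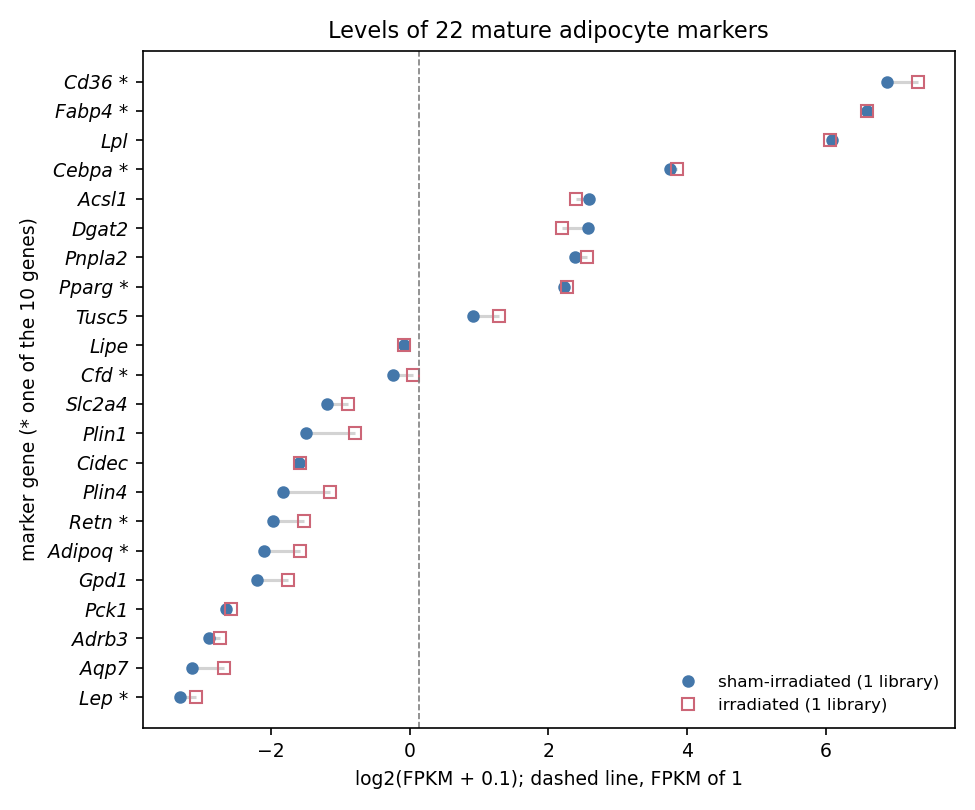
Deposited level, log2(FPKM + 0.1), of 22 mature adipocyte markers in the sham library (circles) and the irradiated library (squares), ordered by the sham-irradiated level. The dashed line is an FPKM of 1, with 9 markers to its right and 13 to its left in both libraries, and asterisks mark the 8 markers that are among the 10 genes.

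Fibroblast and progenitor markers had a higher summed FPKM than the mature adipocyte markers. For all 22 adipocyte markers, it was 322.4 in the sham library and 365.3 in the irradiated library. For 13 fibroblast and progenitor markers, it was 5003 and 3990, and none of the 13 was at 0. Their most abundant gene, the collagen Col1a1, had an FPKM of 1937 and 1428, and their least abundant, Dpp4, had 0.886 and 1.24. Of the 13, 6 were higher and 7 lower, with a median difference of -0.06, 3 counting intervals above 0, and 7 below. The most abundant, Col1a1, Col3a1, and Col1a2, differed by -0.44, -0.33, and -0.43, and the next, Dcn, by 0.01. The largest difference was that of Postn, at -0.55, while Dpp4 differed by 0.44. Of 9 mesothelial markers, 8 reached an FPKM of 1, of which 7 were higher, 5 of them by at least 1, and 1 was lower. Their median difference was 1.255, which became 0.816 with log2(FPKM + 1) and 0.80 among genes with an FPKM of 5 or more. The largest differences were those of Msln, at 2.18, and Krt19, at 1.46. The summed FPKM of the 9 was 34.7 and 49.9, with none at 0, and the highest, the transcription factor Wt1, was the lower gene, at 20.4 and 18.7. Their lowest was the keratin Krt7, at 0.208 and 0.418. The part of these cells in the levels of the 10 genes was not tested.

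Most relatives and partners of the transcription factors differed little between the libraries, and Cebpe, at a low level, differed by more than 1. Of 13 genes of the C/EBP, PPAR, and RXR families, 10 reached an FPKM of 1, and none of them differed by 1 or more. Of the 10, 3 were higher and 7 lower, with a median of -0.035, and 3 counting intervals lay below 0, those of Cebpb, Cebpd, and Cebpg. Cebpg, whose product pairs with other C/EBP proteins, had an FPKM of 13.5 and 12.03, a difference of -0.16. Ddit3, a stress-induced C/EBP relative that blocks the others, had 26.07 and 25.7. Rxra, the main RXR partner of PPARγ in fat, had 11.3 and 10.98, and Ppard had 7.06 and 7.36. The myeloid factor Cebpe was under an FPKM of 1 in both libraries, with 17 and 7 fragments, a difference of -1.07, and an interval from -2.99 to -0.13. Ppara and Rxrg were also under 1, and Rxrg had 2 and 0 fragments.

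Regulators that act upstream of PPARγ showed no common direction. Of 25 regulators that favour adipogenesis, 19 reached an FPKM of 1, with 8 higher, 11 lower, a median of -0.02, and a mean of 0.05. Their most abundant genes were Klf9, with an FPKM of 28.2 and 24.8, and Nr3c1, the glucocorticoid receptor, with 17.9 and 18.5. Among the 19, the largest differences were those of Egr2 (Krox20), an early inducer of Cebpb, with 6.86 and 11.2, and of Klf4, which acts with it, with 15.3 and 20.9. Their differences were 0.70 and 0.45, while Cebpb itself differed by -0.18. Of 22 regulators that oppose adipogenesis, 18 reached an FPKM of 1, with 9 higher, 9 lower, and a median of 0. Among the 18, the largest differences were those of the Notch target Hes1, at 0.52, and of Foxc2, at 0.47. Some genes under an FPKM of 1 were named after their values were seen. Zfp423 of the favouring list differed by -0.56, on 135 and 99 fragments, and Dlk1 of the opposing list by 0.60, on 44 and 85 fragments. In the other direction, Klf5 and Ppargc1b of the favouring list differed by 0.32 and 0.18, and Irf4 of the opposing list by -0.24. The counting intervals of Klf5, Ppargc1b, and Irf4 include 0. Tgfb1, a growth factor that holds back differentiation, had the highest level, with 40.4 and 47.7. Of the genes of either list that reached an FPKM of 1, none differed by 1 or more.

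Known targets of PPARγ also stood on both sides of an FPKM of 1, but their list shares many genes with the adipocyte markers. Of 34 targets, without the 10 genes themselves, 19 reached an FPKM of 1 in either library and 15 were under 1 in both. Of all 24091 genes, 11253 reached it in either. The 15 include every marker of the lower group above that is not a member. Unlike the members, Pdk4, at 0.928 and 1.62, and Mgll, at 0.987 and 1.61, reached the level in the irradiated library only. Of the 19, 10 were higher and 9 lower, with a median of 0.12, 8 counting intervals above 0, and 5 below. The median was -0.03 among targets with an FPKM of 5 or more. Plin2, the lipid droplet protein that many cell types make, had an FPKM of 103.2 and 128.8, and Fabp5, a close relative of Fabp4, had 94.3 and 123.5. Among the 19, the largest differences were 0.74 for Pdk4, a kinase that spares glucose, and 0.65 for Mgll, the monoglyceride lipase. Plin1 and Plin4, under an FPKM of 1, differed by 0.71 and 0.67. The highest genes of this list, Plin2 and Fabp5, differed by 0.32 and 0.39, while Pparg differed by 0.03. The next most abundant targets, Lpl, Scd1, and Angptl4, differed by -0.03, -0.10, and -0.34, so the abundant targets had no common direction.

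The carriers of fatty acids were measured as whole families. Of 24 genes, 16 reached an FPKM of 1, with 11 higher, 4 lower, and 1 equal, and the median was 0.115. Among the 16, Cd36 had the largest difference and Fabp5 the next. Pmp2, another gene of the FABP family, stayed under an FPKM of 1 and differed by 0.96, on 6 and 19 fragments. Fabp5 stood at 0.973 times the FPKM of Fabp4 in the sham library and at 1.27 times in the irradiated library. The transporter gene Slc27a1 (FATP1) had an FPKM of 4.16 and 5.29, with a difference of 0.34, and Scarb1, a scavenger receptor related to CD36, had 5.68 and 6.77, with a difference of 0.25. Cav1, the caveolar protein, had 112.9 and 121.8. Fabp7 had 11.6 and 10.9, with an interval from -0.34 to 0.15. Fabp2, Fabp6, Fabp9, and Fabp12 had 0 fragments in both libraries.

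Other genes for secreted products of fat ranged from 0 fragments to some of the highest levels in the libraries. Of 24 further adipokine genes, 7 stayed under an FPKM of 1 in both libraries and 17 reached it, with 10 higher and 7 lower. The median of the 17 was 0.09, but it was -0.055 among genes with an FPKM of 5 or more and the mean was -0.0565. Of the 17, 1 differed by 1 or more. This was Hp, haptoglobin, which had an FPKM of 145.9 and 45.2 and a difference of -1.69. The chemokine gene Ccl2 had 1017 and 922.8. Apln, the apelin gene, had 22.8 and 14.4, a difference of -0.66. These secreted factors are also made by cells other than adipocytes.

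The C1QTNF genes encode paralogs of adiponectin. Of 9, 5 reached an FPKM of 1, with 2 higher and 3 lower, and the median of the 5 was -0.50. It was 0 over all 9 genes, and the mean of the 5 was -0.27. The lower genes were C1qtnf6, with an FPKM of 34.4 and 24.3, C1qtnf7, with 13.3 and 7.90, and C1qtnf1, with 7.36 and 5.18, and their counting intervals lay below 0. C1qtnf2, with 4.40 and 5.29, and Fam132a (C1qtnf12), with 5.36 and 5.88, had intervals that include 0. Adipoq was under an FPKM of 1, so it stood below these 5 paralogs by their selection. Of the other paralogs, C1qtnf5, with 0 fragments in both libraries, and C1qtnf4, with an FPKM of 0.0476 and 0.0416, were lower than Adipoq. C1qtnf3, with 0.115 and 0.256, and C1qtnf9, with 0.206 and 0.210, were above Adipoq in 1 library and below it in the other.

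Of the genes for adipokine receptors, those for both adiponectin receptors were well above an FPKM of 1 and that of leptin was near 0. Adipor1 had an FPKM of 29.1 and 32.6, a difference of 0.16 with an interval above 0, and Adipor2 had 12.2 and 11.8. Cdh13, which binds multimeric adiponectin, had 0.846 and 0.765. Lepr, the leptin receptor, had 0.0466 and 0.0259, on 11 and 7 fragments. Cap1, a binding partner of resistin, had 108.3 and 123.5. The largest differences among 7 receptor genes that reached an FPKM of 1 were those of C3ar1, at 0.46, and C5ar1, at 0.28, receptors of the complement fragments, which myeloid cells carry. The median of the 7 was 0.19, with 5 higher and 2 lower. The part of myeloid cells in these differences was not tested.

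**Figure D4:**
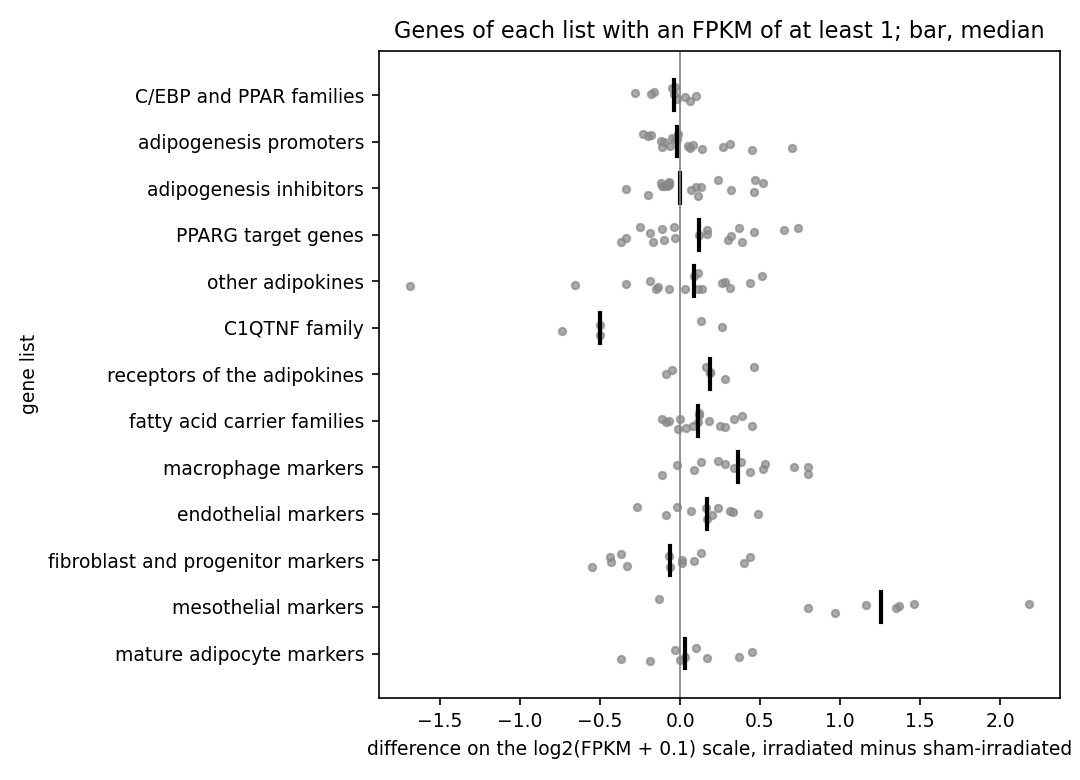
Difference on the log2(FPKM + 0.1) scale (irradiated minus sham-irradiated) of each gene that reached an FPKM of 1 in either library, by gene list, with the median of each list as a bar. The lists of transcription factors and regulators centre near 0, the 9 mature adipocyte markers at 0.03, the macrophage markers at 0.36, and the mesothelial markers at 1.255.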

How the data were processed

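RNA sequencing values of 2 libraries were analysed, with groups taken from the treatment in the labels. The authors deposited log2 values of FPKM with 0.1 added, rounded to 2 decimals, for 24091 genes with coordinates and lengths. The submitters' processing notes name the build mm10 (GRCm38), and 17741 of 23349 gene symbols shared with RefSeq on GRCm38.p6 had the same chromosome and start or end. No source used here gives the aligner, the counting tool, or any filters. The paper given with the series describes other experiments.

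FPKM was recovered by undoing the log2 and the added 0.1. The depth of each library was taken as the total at which genes with few fragments came closest to whole fragments. Such genes numbered 2566 (sham) and 2515 (irradiated), each within 0.12 of a whole number. Fragments of abundant genes are approximate because of the rounding. The procedure was tested on simulated data. With 1 library per group, no p-value was computed.

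Differences were taken as irradiated minus sham on the deposited log2 scale, which understates changes of genes with low FPKM. Genes that reached an FPKM of 1 in either library were kept. The members and gene lists were chosen with earlier results of these data known. Lists are described by counts and medians beside those of all genes kept. Genes were named by rule as all members, the 2 most abundant and the 2 most different genes of each list, the highest and lowest marker of each cell type, and any gene of the families and of the receptors. Some genes that this rule covers are not reported here. Trarg1, C1qtnf12, and Asip were matched by RefSeq synonyms. The alternatives tried were a pseudocount of 1 or none, centring, scaling without the 100 most abundant genes, other filters, thresholds, and level limits, and the mean. Scripts ran in Python 3.11.15 with SciPy 1.17.1, pandas 2.3.3, numpy 2.4.6, and, for plots, matplotlib 3.10.9.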

Additional observations from a re-analysis of the deposited data

How the results depend on the processing

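No paired analysis was possible because each group had 1 library, and no library was left out. The 36 differences of members and 78 list medians computed under the alternatives stayed within the counting interval of the gene or the range of the list median (95%, or all values for the 5 C1QTNF genes), and no difference of a member whose interval excluded 0 changed sign. For genes with few fragments this interval is wide, so staying within it says little. The difference of Adipoq, 0.51, became 0.121 with log2(FPKM + 1) and 0.801 without a pseudocount. Medians near 0 are not stable in sign, since 5 of the 13 lists had a median or mean of 0 or of the other sign under at least 1 alternative. For mature adipocyte markers, the median of 0.03 was 0 among genes with an FPKM of 5 or more and 0.20 without a filter. For Lep, no alternative was computed. With 0.5 in place of 1 as the limit on FPKM, 7 of the 10 genes were above it in both libraries, Cfd included, and with 5 there were 5, without Pparg. Scaling without the 100 most abundant genes left 6 above an FPKM of 1 in both libraries, with Cfd above it in the irradiated library.

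The counts of genes that differed by 1 or more, 89 higher and 42 lower, moved with the settings. They were 29 and 17 with log2(FPKM + 1), 267 and 148 without a filter, 23 and 10 with an FPKM of at least 5, 11 and 8 with a threshold of 2, and 485 and 162 with a threshold of 0.5. The filters and thresholds set how many genes are counted, and a larger added value shrinks differences of low genes. Depth limits Adipoq, Lep, Retn, and Cfd, which had 32 and 53 fragments in all.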
